A study of Saccharomyces cerevisiae with 8 samples.

Results

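The comparison described here is that of ALA-fed hem1 yeast with wild type yeast in air. It was made between 4 of the 8 Affymetrix YG_S98 arrays of the series, 2 of hem1 with ALA and 2 of the wild type in normoxia, chosen by their labels over all probe sets other than controls. The first group was a hem1 deletion strain of *Saccharomyces cerevisiae*, kept for 6 h in YPD, a rich glucose medium, that held 250 µM 5-aminolevulinic acid (ALA). After a wash, duplicate 15 ml cultures were started in YPD with ALA and ran for 16 h. The wild type, named BY45742 in the labels, was grown for 6 h in YPD and then for 12 h in 15 ml under normoxia, with no mention of ALA. The other 4 arrays, 2 of hem1 without ALA for 16 h and 2 of the wild type in hypoxia for 12 h, entered the model as a source of the spread between arrays and are given beside single genes. Strain, ALA and culture time all differ between hem1 with ALA and normoxia and cannot be told apart, and the labels do not say from which strain the hem1 deletion was made. The labels leave unsaid whether the 2 wild type samples of each condition were separate cultures. The p-values therefore reflect the spread among these arrays alone, and that spread may be technical.

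HEM1 encodes 5-aminolevulinate synthase, the first enzyme of heme synthesis, and ALA is its product, so that a hem1 strain makes heme only from ALA that is supplied. Heme serves yeast as the cofactor of cytochromes, catalases and sterol-synthesis enzymes, and also as a signal: with heme bound, the activator Hap1 switches on genes of respiration and the repressor Rox1, which holds down hypoxic genes. When sterols run low, Upc2 activates sterol uptake and the DAN/TIR cell wall genes, and when iron or iron-sulfur clusters run low, Aft1 and Aft2 activate the iron regulon.

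The deposited values are MAS5 signals, 1 per probe set and array. Differences are log2 signal of hem1 with ALA minus normoxia with their standard error (SE), from limma over all 8 arrays, and a gene is said to be called, to rise or to fall where its Benjamini-Hochberg adjusted p was under 0.05. Between the 2 arrays of a group the correlation of log2 signals lay between 0.976 and 0.985 in all 4 groups. The signal at the 30th percentile of an array, below which a gene is called dim here, was 37.1 and 35.5 in hem1 with ALA, against 26.6 and 31.2 in normoxia. Over all probe sets other than controls, median log2 signal was 0.23 higher in hem1 with ALA, although MAS5 held the trimmed mean of every array at about 500.5. The ratio of the 3′ to the 5′ ACT1 control, a measure of RNA integrity and labelling, was 1.86 and 1.57 in hem1 with ALA and 1.40 and 1.49 in normoxia. Its part in the results was not tested. RNA came from whole cultures, so fewer cells that express a gene and less of its RNA per cell cannot be told apart.

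The deleted gene was examined first. HEM1 (YDR232W) had signals of 459.7 and 608 in hem1 with ALA, against 707 and 683 in normoxia. Both hem1 arrays were lower, but the log2 difference of -0.40 ± 0.19 did not pass (adjusted p = 0.17), and without ALA the strain gave 849 and 696. The position of the probes relative to the deleted stretch is not known here, so this signal does not check the deletion. A second gene did separate the strains. LEU2 (YCL018W), an enzyme of leucine synthesis and a common selection marker, had 1684 and 2025 in hem1 with ALA and 3662 and 3486 without ALA, against 6.93 and 17.4 in hypoxia and 13.7 and 36.4 in normoxia. All 4 hem1 arrays were far above all 4 wild type arrays, of which 3 were dim at this gene. Over normoxia, hem1 with ALA was at least 59.4-fold higher (log2 difference 6.37 ± 0.50, adjusted p = 0.0002), a bound set against the higher of the dim signal and the 30th percentile, and the other 2 LEU2 probe sets were also called. HIS3, in histidine synthesis, fell 2.12-fold at its brighter probe set and did not pass at the other (adjusted p = 0.82), and its fall was lost without hem1 replicate 1. ADE2 fell 2.03-fold, lost without hem1 replicate 1 or normoxia replicate 2, and TRP1 and MET17 did not pass, while URA3 and LYS2 lay below 10 on every array and were not tested.

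Markers of the mating types were compared because a strain can differ in them. None of the 4 alpha-specific genes was called, and their summed signal was 21274 and 22930 in hem1 with ALA, against 25970 and 24807 in normoxia. MF(ALPHA)1, the alpha-factor precursor, had 13945 and 12875 in hem1 with ALA and 16107 and 14977 in normoxia, so both strains expressed the defining pheromone gene of alpha cells. Of the 6 a-specific genes 4 were tested and 1 was called higher, while 12.6% of all genes were called higher and 9.12% lower. The summed a-specific signal was 279.7 and 229 in hem1 with ALA, against 139.6 and 133 in normoxia. MFA2, an a-factor gene, had 86.6 and 84.8 in hem1 with ALA and 26.8 and 30.02 in normoxia, and was at least 2.97-fold higher, while STE2 and AGA2 were dim and not tested.

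Over the whole array 1540 of 7081 probe sets were called, or 21.7%, of which 979 were higher in hem1 with ALA (13.8%) and 561 lower (7.92%). Without hem1 replicate 1 the total was 838, and without hem1 replicate 2 it was 695. At 1 probe set per gene, 1147 of 5284 genes were called (21.7%), with 665 higher (12.6%) and 482 lower (9.12%). At least 2-fold changes numbered 361 among the genes that rose and 180 among those that fell. Arrays of the groups did not overlap at 64.9% of genes, 35.0% with hem1 with ALA higher and 29.8% with it lower. The split between directions depended on the scaling: higher calls were 63.6% of all calls on the deposited scale, 47.1% after quantile normalization, 35.9% after centring each array on its median and 91.8% after scaling to the spiked-in controls. Among the genes called higher, 343 were also called higher under all 3 other scalings, and among those called lower 148 were called lower under all 3. Beside the pathways below, the list of largest rises held UBC11, an E2 ubiquitin-conjugating enzyme, at least 2.60-fold higher. It also held PDH1, a mitochondrial 2-methylcitrate dehydratase (at least 12.8-fold), VMR1, a vacuolar ABC transporter (at least 14.5-fold), and RRT5, YMR317W and YMR230W-A. At UBC11, RRT5 and YMR230W-A only the arrays of hem1 with ALA exceeded the 30th percentile. These genes entered the test through their high group alone. Other genes among the largest falls were HSP42 and HSP30, CWP1, YNL058C, UBX6, CIP1, ARO10 and the noncoding RNA YNCJ0001C, which fell between 2.23-fold at least and 7.05-fold.

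**Figure D1:**
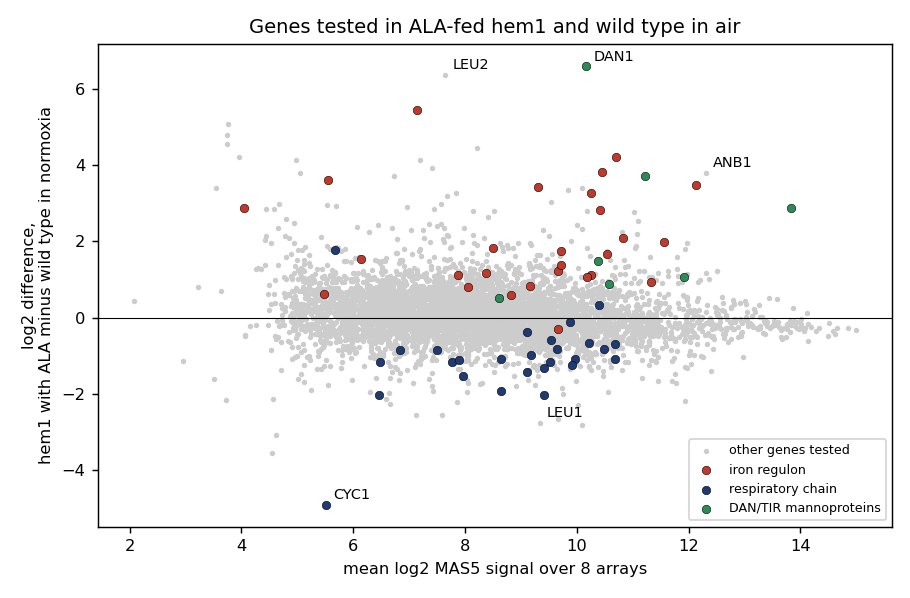
Log2 difference, hem1 with ALA minus normoxia, against the mean log2 MAS5 signal over 8 arrays, 1 point for each of 5284 genes. Iron regulon genes (red) lie above 0 except ISU2, most respiratory chain genes (blue) lie below 0, and LEU2, DAN1 and CYC1 are among the points farthest from 0.

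Most genes of the iron regulon were higher in hem1 with ALA. Of its 27 genes 24 rose and none fell, against 12.6% higher and 9.12% lower over all genes, and the median log2 difference was 1.68, against 0.06 over all genes. With 1 array left out at a time the number called higher was between 19 and 24. The iron regulon covers siderophore capture, reductive uptake at the cell surface, and release and use of iron inside the cell.

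All 7 genes of siderophore capture rose, against 12.6% higher over all genes, with a median log2 difference of 3.49. They are also counted in the iron regulon, and this sublist was drawn after values were seen. FIT1, FIT2 and FIT3 encode cell wall mannoproteins that retain siderophore-bound iron. FIT2 (YOR382W) had 5373 and 7053 in hem1 with ALA, against 299 and 371 in normoxia. Both hem1 arrays were well above both normoxia arrays, an 18.5-fold rise (log2 difference 4.21 ± 0.19, adjusted p = 2.1e-05). FIT3 had 14333 and 14122 in hem1 with ALA and 1190.2 and 1345 in normoxia, and FIT1 had 1259.7 and 1308 in hem1 with ALA and 46.2 and 18.3 in normoxia. Neither pair of groups overlapped: FIT3 rose 11.2-fold, and FIT1, dim on 1 normoxia array, rose at least 33.8-fold. The transporters ARN1, ARN2, SIT1 and ENB1 take up the iron-siderophore complexes themselves. ARN2 (YHL047C) had 4805 and 4431 in hem1 with ALA and 343 and 314 in normoxia, a 14.1-fold rise with no overlap (log2 difference 3.81 ± 0.15, adjusted p = 2.1e-05). ARN1 rose 10.7-fold, SIT1 7.13-fold and ENB1, the enterobactin transporter, 3.98-fold. SIT1 was the least even of them in normoxia, at 789 and 305, against 3728 and 3286 in hem1 with ALA.

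Reductive uptake, in which surface reductases hand iron to a copper-dependent oxidase and its permease, had smaller log2 differences. Of its 9 genes 8 rose, against 12.6% higher over all genes, with a median log2 difference of 1.22. These rises are also counted in the iron regulon, and this sublist too was drawn after values were seen. FET3 (YMR058W), the multicopper ferroxidase, had 5509.5 and 6083 in hem1 with ALA, against 3073 and 2993 in normoxia. Its groups did not overlap and it rose 1.91-fold (log2 difference 0.93 ± 0.13, adjusted p = 0.0023). FTR1, the permease that works with FET3, had 1726 and 1523 in hem1 with ALA and 686 and 708 in normoxia and rose 2.33-fold. FRE1, the main ferric reductase, rose 1.74-fold, a call lost without hem1 replicate 2. FRE2, FRE3 and FRE5 are further reductases, and all 3 were dim on at least 1 normoxia array, with rises of at least 2.61-fold, 4.56-fold and 1.62-fold, the first lost without hem1 replicate 1. FRE4 had 37.4 and 37.1 in hem1 with ALA and 25.9 and 22.5 in normoxia and did not pass (adjusted p = 0.18). Copper reaches FET3 through ATX1 and CCC2, a chaperone and a pump of the secretory pathway. CCC2 had 901 and 720.3 in hem1 with ALA and 237 and 220.4 in normoxia and rose 3.52-fold, and ATX1 rose 1.78-fold, a call lost without hem1 replicate 2 or normoxia replicate 1.

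Genes that move iron inside the cell also rose. FTH1 and FET5, the vacuolar counterparts of FTR1 and FET3, rose 3.19-fold and 2.09-fold, and SMF3, a vacuolar exporter, and FRE6, a vacuolar reductase, rose 2.61-fold and 2.17-fold. The SMF3 call was lost without either hem1 replicate and with only the 4 arrays compared, and the FRE6 call without hem1 replicate 2. TIS11 (CTH2), which destabilises transcripts of iron-using proteins, had 1906 and 2740.1 in hem1 with ALA, against 184 and 301 in normoxia. Both hem1 arrays were higher, a 9.71-fold rise (log2 difference 3.28 ± 0.27, adjusted p = 0.00023). HMX1, the heme oxygenase, had 351 and 377 in hem1 with ALA and 172 and 149 in normoxia, a 2.27-fold rise lost without hem1 replicate 2, and without ALA it had 982 and 849. ISU1, a scaffold on which iron-sulfur clusters are built, had 4208 and 3636 in hem1 with ALA and 928 and 916 in normoxia and rose 4.24-fold. ISU2, the second scaffold gene, had 495 and 584 in hem1 with ALA and 560.4 and 781 in normoxia, which overlap and did not pass. MRS4, a mitochondrial iron carrier, did not pass either (log2 difference 0.60 ± 0.20, adjusted p = 0.068). VHT1, the biotin transporter, rose 3.36-fold, and COT1, a vacuolar zinc and cobalt transporter, rose 2.18-fold.

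The 4 arrays outside the comparison show the same genes in another contrast, which is not a repeat of the first. Its groups differ in strain and culture time, and only the wild type was labelled hypoxic. For hem1 without ALA against hypoxia, which share no array with hem1 with ALA and normoxia, both hem1 arrays lay above both hypoxia arrays at 22 of the 24 iron regulon genes that rose and at all 7 siderophore genes, against 42.5% of all genes. FIT2 had 5453 and 4709 in hem1 without ALA and 709.7 and 742 in hypoxia, and ARN2 had 4685 and 5549 in hem1 without ALA and 530.1 and 488 in hypoxia. FET3 had 5333 and 5748 in hem1 without ALA and 449 and 459 in hypoxia. The FET3 signal in hypoxia was also below both normoxia arrays, whereas that of hem1 without ALA was close to that of hem1 with ALA.

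**Figure D2:**
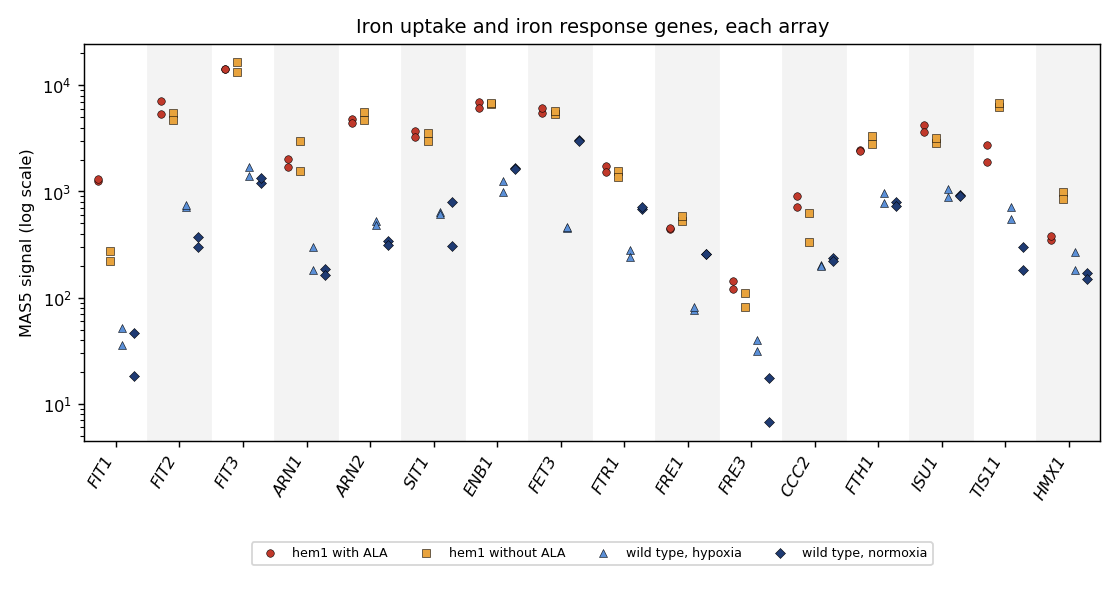
MAS5 signal of 16 iron genes on a log axis, 1 symbol per array, for hem1 with ALA, hem1 without ALA, the wild type in hypoxia and the wild type in normoxia. At each gene both arrays of hem1 with ALA lie above both normoxia arrays.

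Genes of respiration moved the other way. Of 27 nuclear genes of the respiratory chain 17 fell and 1 rose, against 9.12% and 12.6% over all genes, with a median log2 difference of -1.08. The number that fell was 20 after median centring and 13 after scaling to the spiked-in controls. In hem1 without ALA, both arrays were below both hypoxia arrays at 15 of the 17, against 18.5% of all genes.

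CYC1 (YJR048W), which encodes the aerobic form of cytochrome c, fell the most of all genes tested. Its signals were 18.3 and 32.1 in hem1 with ALA, against 660.4 and 809.6 in normoxia. Both hem1 arrays were dim, which makes the fall at least 20.1-fold (log2 difference -4.92 ± 0.34, adjusted p = 0.00012). Without ALA the strain had 10.9 and 13.7, and the wild type in hypoxia had 22.2 and 17.6. CYC7, the second cytochrome c gene, had 54.7 and 41.7 in hem1 with ALA and 106 and 107 in normoxia and fell 2.24-fold, a call lost without hem1 replicate 2.

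In the cytochrome bc1 complex 6 of 9 genes fell, against 9.12% lower over all genes, and the other 3 had log2 differences below 0. The lists of single complexes are parts of the respiratory chain list and were drawn after values were seen. CYT1 (YOR065W), cytochrome c1, had 47.5 and 56.5 in hem1 with ALA, against 197 and 233 in normoxia. The groups did not overlap, a 4.13-fold fall (log2 difference -2.05 ± 0.21, adjusted p = 0.00055). QCR2, a core subunit, had 220.0 and 249 in hem1 with ALA and 1061 and 746 in normoxia and fell 3.80-fold. RIP1, the Rieske iron-sulfur protein, had 573 and 618 in hem1 with ALA and 1524 and 1469 in normoxia and fell 2.51-fold. The smaller subunits QCR6, QCR8 and QCR9 fell 1.99-, 2.39- and 2.26-fold. COR1, the other core subunit, had 96.5 and 142 in hem1 with ALA and 312 and 144 in normoxia. Its lower normoxia array was close to the higher hem1 array and it did not pass (adjusted p = 0.13).

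Of 9 nuclear genes of cytochrome c oxidase 6 fell, against 9.12% lower over all genes. COX6 had 564 and 544 in hem1 with ALA, against 1451 and 1524 in normoxia, a 2.69-fold fall with no overlap (log2 difference -1.43 ± 0.17, adjusted p = 0.001). COX5A, the aerobic form of subunit 5, had 255 and 259 in hem1 with ALA and 719 and 782 in normoxia and fell 2.92-fold. COX4, COX12 and COX13 fell between 2.11- and 2.14-fold and COX9 fell 1.60-fold. COX7 and COX8 did not pass, with log2 differences of -0.82 ± 0.40 and -0.12 ± 0.28. In complex II, succinate dehydrogenase, SDH2, its iron-sulfur subunit, had 316 and 200.4 in hem1 with ALA, against 1013 and 1047 in normoxia and fell 4.09-fold. SDH1, the flavoprotein, fell 2.17-fold, while SDH3 and SDH4, which anchor the enzyme in the membrane, did not pass. Among the NADH dehydrogenases NDI1, which faces the matrix, fell 2.23-fold. NDE1, which faces outward, did not pass, and NDE2 was the single rise of the list, at 14.9 and 36.7 in hem1 with ALA and 11.2 and 4.11 in normoxia. NDE2 was dim on 3 of these 4 arrays, and its call was lost under 9 of the 12 alternatives.

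The calls of SDH1, NDI1, COX9 and COX12 were lost when 1 array was left out, and those of SDH1, QCR6, COX9 and COX12 after scaling to the spiked-in controls.

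**Figure D3:**
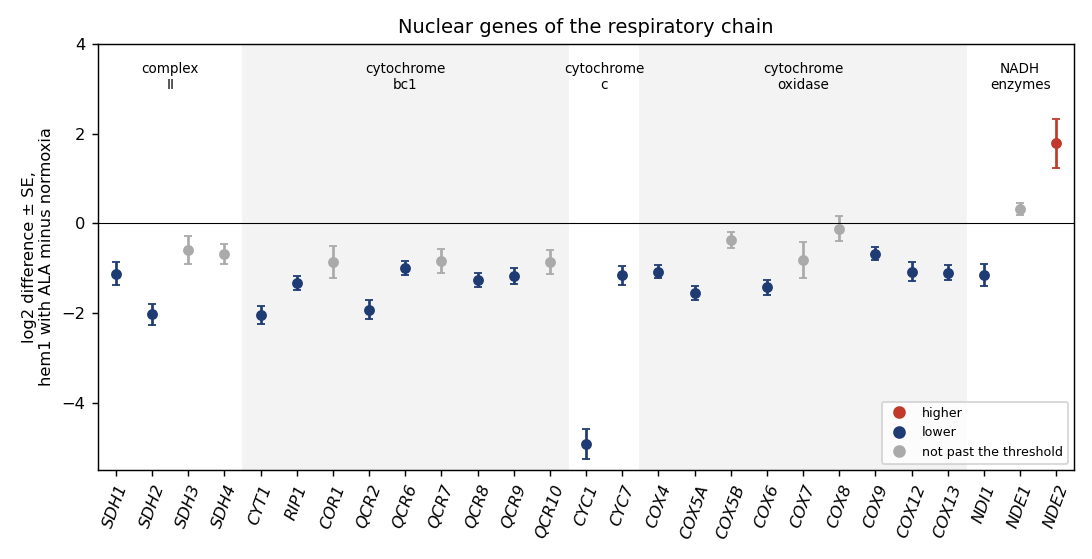
Log2 difference with its SE, hem1 with ALA minus normoxia, for 27 nuclear respiratory chain genes grouped by complex, coloured by call at an adjusted p of 0.05. CYC1 is the lowest point, and of the other 26 genes only NDE1 and NDE2 lie above 0.

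Transcripts of the mitochondrial genome were measured too, although only 4 of its 8 genes passed the filter on dim signals. Among those that did not, COX2 had 5.02 and 1.58 and ATP6 0.96 and 1.80 in normoxia. How well the array measures mitochondrial transcripts was not tested. COX1, subunit 1 of cytochrome oxidase, had 245 and 231 in hem1 with ALA, against 1981 and 1136 in normoxia, a 6.31-fold fall that was also called at its second probe set. OLI1, subunit 9 of the ATP synthase, had 1571 and 998 in hem1 with ALA and 6153 and 5368 in normoxia and fell 4.59-fold. Both were clearly separated between the groups. COB, cytochrome b, was called lower at 3.06 and 3.35 in hem1 with ALA and 47.3 and 29.8 in normoxia, but these signals lie near the limit, the bound was only 1.04-fold, its other probe set did not pass, and the call was lost with a floor at the 30th percentile. COX3 was dim in both groups. The next 3 lists are set against 12.6% higher and 9.12% lower over all genes. Among the 15 nuclear genes of the ATP synthase 2 fell, ATP2 and ATP16, and none rose. The falls numbered 5 after median centring, 0 after scaling to the spiked-in controls, and 1 without either hem1 replicate or without normoxia replicate 1. Of 66 mitochondrial ribosomal protein genes 3 rose and none fell, and the rises numbered 19 after scaling to the spiked-in controls and 0 without hem1 replicate 2. Of 20 genes that assemble cytochromes and cytochrome oxidase 4 rose, CYT2, COX11, BCS1 and CYC3, and 1, COX15, which makes heme a, fell 1.59-fold. With 1 array left out at most 1 of the 20 was called higher and at most 1 lower, and after median centring 1 was higher and 3 lower.

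Hap1 targets overlap the respiratory list. Of 11 genes known as activated by Hap1 7 fell and none rose, against 9.12% and 12.6% over all genes, with a median log2 difference of -0.70, and without hem1 replicate 2 the count was 4. CYC1, CYC7, CYT1, COX5A and QCR2 were described above. YHB1, flavohemoglobin, had 1906 and 2054 in hem1 with ALA, against 3040.2 and 3395 in normoxia, and fell 1.62-fold at its brightest probe set, with both other probe sets also called. Its groups did not overlap, but the call at the brightest probe set was lost without either hem1 replicate, and hem1 without ALA had 254 and 227. DLD1, D-lactate dehydrogenase, fell 1.49-fold, a call lost under 6 alternatives. CYB2, L-lactate dehydrogenase, had 38.7 and 46.9 in hem1 with ALA and 34.2 and 59.5 in normoxia, which overlap. CTT1, cytosolic catalase, and HMG1 did not pass, and HAP1 itself did not pass at its brightest probe set (log2 difference 0.62 ± 0.19, adjusted p = 0.053). Of its 2 other probe sets 1 was called higher (log2 difference 0.57, adjusted p = 0.028), at 283 and 287 in hem1 with ALA and 199.8 and 184 in normoxia, and 1 did not pass (adjusted p = 0.14). In hem1 without ALA the called probe set was higher than with ALA, at 1146 and 1151. The brightest was lower than with ALA, at 684 and 626, so the probe sets may not measure the same transcript. HAP4, the regulatory subunit of another activator of respiration, rose 1.88-fold, at 348 and 343 in hem1 with ALA and 175 and 194 in normoxia, a call lost without either hem1 replicate or normoxia replicate 1.

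Among 17 heme proteins 7 fell (41.2%) and 2 rose (11.8%), against 9.12% and 12.6% over all genes, and 4 fell without hem1 replicate 2 or after scaling to the spiked-in controls. The list shares genes, CYC1 among them, with the respiratory chain and Hap1 lists, so these counts are not separate. CCP1, cytochrome c peroxidase of mitochondria, had 219.7 and 149 in hem1 with ALA, against 627 and 585 in normoxia, and fell 3.34-fold with no overlap. CYB5, cytochrome b5, fell 1.69-fold and ERG5, a sterol desaturase, 2.01-fold, both lost without 1 of the hem1 replicates. CTA1, the peroxisomal catalase, was higher in hem1 with ALA, at 53.1 and 41.7, against 11.4 and 13.0 in normoxia, where it was dim, a rise of at least 1.64-fold that was lost without hem1 replicate 1. At CTA1 only the arrays of hem1 with ALA exceeded the 30th percentile, so it entered the test through its high group alone. The other rise was FRE1. ERG11, OLE1, SCS7 and DAP1 did not pass.

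Several genes known from hypoxia were higher in hem1 with ALA. Of 10 genes known as Rox1-repressed, 4 rose and 1 fell, against 12.6% and 9.12% over all genes, with a median log2 difference of 0.52. The number of rises was 2 without hem1 replicate 2. ANB1 (YJR047C), the hypoxic form of translation factor eIF5A, had 7713 and 8217 in hem1 with ALA, against 518 and 629 in normoxia. Both hem1 arrays were far above both normoxia arrays, a 13.9-fold rise (log2 difference 3.80 ± 0.17, adjusted p = 2.1e-05), and below all 4 arrays of hem1 without ALA, at 11879 and 9776, and of hypoxia, at 12336 and 14677. AAC3, the hypoxic ADP/ATP carrier, had 365 and 527 in hem1 with ALA and 121 and 104 in normoxia and rose 3.89-fold. FET4, a low-affinity iron transporter, rose 2.62-fold, a call lost without hem1 replicate 2 or normoxia replicate 1, and with only the 4 arrays compared. HEM13, which encodes the oxygen-dependent coproporphyrinogen oxidase, had 524 and 756 in hem1 with ALA, against 363 and 194 in normoxia, and passed narrowly (log2 difference 1.25 ± 0.38, adjusted p = 0.049). Its groups did not overlap, but the call was lost under 8 of the 12 alternatives, among them leaving out either hem1 replicate. OLE1, HMG2, COX5B, ROX1 and EUG1 did not pass.

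Proteins with a hypoxic and an aerobic form were set side by side. For eIF5A the hypoxic ANB1 rose, while the aerobic HYP2 had 9388 and 9544 in hem1 with ALA and 17439 and 7146 in normoxia. The uneven normoxia arrays enclosed both hem1 arrays and HYP2 did not pass, and the coding sequences are close enough that probes may share signal. For cytochrome c both forms fell. For subunit 5 of cytochrome oxidase the aerobic COX5A fell, while the hypoxic COX5B had 367 and 402 in hem1 with ALA and 501 and 491 in normoxia and did not pass. For the ADP/ATP carrier the hypoxic AAC3 rose and the aerobic PET9 (AAC2) did not pass, at 2757 and 2725 in hem1 with ALA and 3239.6 and 3239 in normoxia. For HMG-CoA reductase neither HMG2 nor HMG1 passed (log2 differences -0.06 ± 0.19 and -0.28 ± 0.15).

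**Figure D4:**
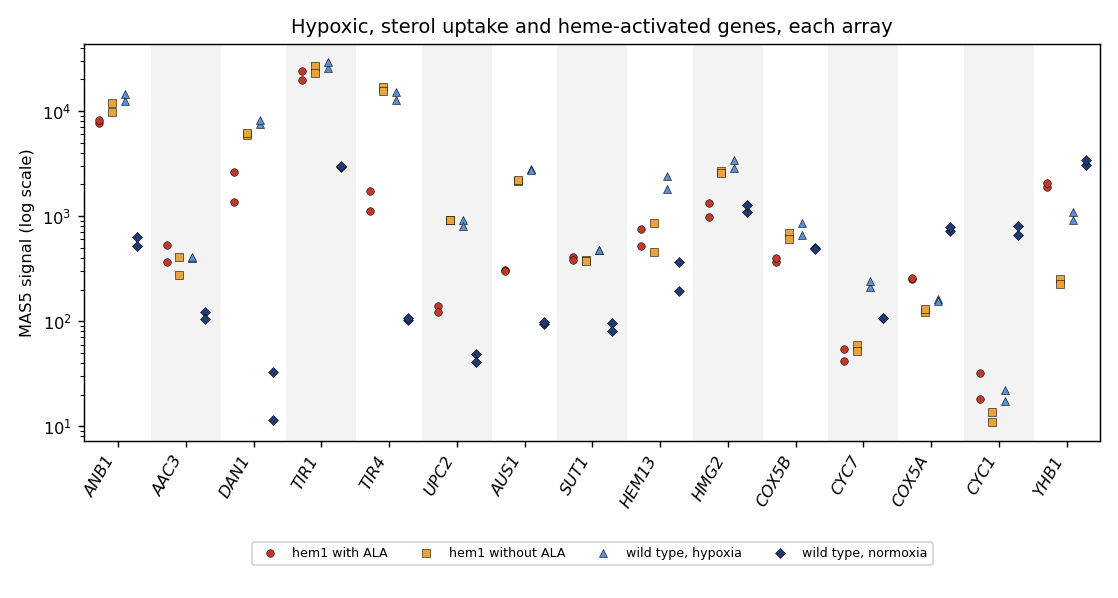
MAS5 signal on a log axis, 1 symbol per array, of hypoxic and sterol uptake genes and of heme-activated genes, for hem1 with ALA, hem1 without ALA, the wild type in hypoxia and the wild type in normoxia. At DAN1, TIR4, UPC2 and AUS1 hem1 with ALA lies above normoxia and below both other groups, and at CYC1 hem1 with ALA lies far below normoxia.

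Most cell wall genes of anaerobic growth that could be tested rose. Of the 8 DAN/TIR genes 7 were tested and 6 rose, with a median log2 difference of 1.48. The counts of this and the next lists stand against 12.6% higher and 9.12% lower over all genes. DAN1 (YJR150C) had 1357 and 2638 in hem1 with ALA, against 11.5 and 32.7 in normoxia, where it was dim on 1 array and close to the limit on the other. Both hem1 arrays were far higher, at least 64.2-fold (log2 difference 6.61 ± 0.46, adjusted p = 0.00012), the largest rise among genes tested, and below hem1 without ALA at 5919 and 6119. TIR1 had 24136 and 19607 in hem1 with ALA and 2941 and 3015 in normoxia and rose 7.30-fold. TIR4 had 1123 and 1722 in hem1 with ALA and 102 and 108 in normoxia and rose 13.3-fold, with 16799 and 15572 in hem1 without ALA. TIR2 and TIR3 rose 2.79- and 2.09-fold, and DAN4 did not pass (adjusted p = 0.086). The other rise was PAU23, at 1.85-fold, which is also counted among the seripauperins, given next. Its call was lost with only the 4 arrays compared, without hem1 replicate 2 or without normoxia replicate 1. The seripauperins, a large subtelomeric family of related cell wall proteins, are so alike that probes may share signal. Of 24 members 10 were tested and 8 rose, with a median log2 difference of 1.06, and the count was 4 without hem1 replicate 2. PAU4 had 382 and 633 in hem1 with ALA and 169 and 179 in normoxia, a 2.83-fold rise, and 8712 and 8675 in hem1 without ALA. At all 8 the arrays of hem1 without ALA lay below those of hypoxia, against 18.5% of all genes. Among the 6 DAN/TIR genes that rose this held at 4, with PAU23 counted in both lists. Of 11 mannoproteins of aerobic cell walls 2 fell (18.2%), 1 rose (9.09%) and 8 did not pass, with a median log2 difference of 0.11. CWP1 fell 4.94-fold, at 2757 and 1113 in hem1 with ALA and 9306 and 8039.9 in normoxia, and CWP2 fell 1.57-fold, a call lost under 8 alternatives. The rise was TIP1 (log2 difference 0.50 ± 0.13, adjusted p = 0.029), also lost under 8.

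Genes of sterol uptake were mostly higher as well. Of 8 genes 5 rose and 1 fell, against 12.6% and 9.12% over all genes, with a median log2 difference of 1.01, and 3 rose without hem1 replicate 2. UPC2 (YDR213W), the sterol-responsive activator, had 138 and 123 in hem1 with ALA, against 48.3 and 41.2 in normoxia, a 2.93-fold rise with no overlap (log2 difference 1.55 ± 0.17, adjusted p = 0.00077). ECM22, its relative, rose 2.22-fold, a call lost without hem1 replicate 2. AUS1, a sterol importer, had 305 and 297 in hem1 with ALA and 94.8 and 98.6 in normoxia, a 3.11-fold rise. Of its 5 other probe sets 3 were called higher and 2 did not pass. SUT1, a regulator of sterol uptake, had 409 and 384 in hem1 with ALA and 96.2 and 81.0 in normoxia, a 4.49-fold rise, and its relative SUT2 rose 1.82-fold, a call lost under 5 alternatives, among them leaving out either hem1 replicate. ARE2, which esterifies sterols, fell at least 2.10-fold, a call lost without hem1 replicate 2 or normoxia replicate 1, and ARE1 and the importer PDR11 did not pass.

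Both directions appeared among genes of ergosterol and heme synthesis. Of 24 ergosterol genes 4 fell (16.7%) and 1 rose (4.17%), against 9.12% and 12.6% over all genes, with a median log2 difference of -0.21, and 8 fell after median centring. MVD1, mevalonate pyrophosphate decarboxylase, had 604 and 731 in hem1 with ALA, against 1967 and 1853 in normoxia, a 2.87-fold fall. ERG13, HMG-CoA synthase, fell 2.24-fold and ERG20, farnesyl pyrophosphate synthase, 2.10-fold. These 3 act early, before squalene, and were called under every alternative. ERG5, a heme enzyme of a late step, was the fourth. NCP1, which passes electrons to ERG11, was the rise, lost under 6 alternatives, while ERG11 itself had 5921 and 4647 in hem1 with ALA and 5391 and 5259 in normoxia. Of 8 genes of the heme pathway 2 rose (25%) and 2 fell (25%). HEM15, ferrochelatase, which inserts the iron, had 549.9 and 645 in hem1 with ALA and 1577 and 1492 in normoxia and fell 2.58-fold (log2 difference -1.36 ± 0.15, adjusted p = 0.00087), and HEM4 fell 1.74-fold, lost without hem1 replicate 1 or normoxia replicate 2. The rises were HEM13 and HEM2, the enzyme that uses ALA, at 1058 and 1109 in hem1 with ALA and 755 and 497 in normoxia. The HEM2 call was lost under 7 alternatives, among them leaving out either hem1 replicate, while that of HEM15 held under all 12 alternatives.

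In leucine and branched-chain amino acid synthesis the genes split. Of 15 genes 4 rose and 4 fell, against 12.6% and 9.12% over all genes. LEU1 (YGL009C), isopropylmalate isomerase, an iron-sulfur enzyme, had 213 and 152 in hem1 with ALA, against 1716 and 868 in normoxia. The normoxia arrays differed from each other but both lay above both hem1 arrays, a 6.80-fold fall (log2 difference -2.76 ± 0.32, adjusted p = 0.00091). OAC1, a mitochondrial carrier that exports the leucine precursor isopropylmalate, had 675 and 691 in hem1 with ALA and 2564 and 2769 in normoxia, a 3.90-fold fall. BAT1, the mitochondrial branched-chain aminotransferase, fell 2.45-fold and ILV3, dihydroxyacid dehydratase, another iron-sulfur enzyme, 2.44-fold. All 4 falls were called under every alternative, and at all 4 the arrays of hem1 without ALA lay below those of hypoxia, against 18.5% of all genes. LEU1 had 276 and 261 in hem1 without ALA and 2624 and 3397 in hypoxia. Beside LEU2, the rises were the amino acid permeases BAP2, at 2.32-fold, and BAP3, and the regulator LEU3, the last 2 lost under 5 and 7 alternatives. The LEU2 difference between the strains stands beside these genes, and its part in them was not tested.

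Of 16 iron-sulfur proteins 5 fell and 1 rose, against 9.12% and 12.6% over all genes. Those that fell were LEU1, SDH2, ILV3, RIP1 and PRI2, a subunit of DNA primase, which fell 2.31-fold. ACO1, aconitase, an iron-sulfur enzyme of the TCA cycle, was higher, at 3570.2 and 3883 in hem1 with ALA, against 1584 and 1875 in normoxia, a 2.16-fold rise with no overlap. BIO2, biotin synthase, and LIP5, lipoate synthase, had log2 differences of -0.89 ± 0.32 and -0.54 ± 0.17 and did not pass. The iron-sulfur list was chosen after values had been seen.

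Genes of the TCA cycle changed in both directions. Of 15 genes 3 rose and 6 fell, against 12.6% and 9.12% over all genes. The rises were ACO1 and both subunits of NAD-dependent isocitrate dehydrogenase. IDH1 (YNL037C) had 2223 and 3077 in hem1 with ALA, against 314 and 443 in normoxia, a 7.02-fold rise (log2 difference 2.81 ± 0.22, adjusted p = 0.0002), and IDH2 had 9609 and 10417 in hem1 with ALA and 4544 and 5326 in normoxia, a 2.03-fold rise. All 3 rises were called under every alternative. The falls were the later enzymes KGD1, KGD2 and LPD1 of the 2-oxoglutarate dehydrogenase complex, LSC2, a subunit of succinyl-CoA ligase, and the 2 subunits of complex II. The number that fell was 1 after scaling to the spiked-in controls and 2 without either hem1 replicate. CIT1, the citrate synthase at the entry of the cycle, had 1579 and 2068 in hem1 with ALA and 1691 and 2149 in normoxia, which overlap.

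Outside these pathways most lists held genes that moved in both directions, and their counts stand against 12.6% higher and 9.12% lower over all genes. Among 11 hexose transporters and glucose sensors tested 5 were higher and 2 lower, and 2 were higher without hem1 replicate 2. HXT1, a low-affinity transporter, had 8223 and 7624 in hem1 with ALA, against 2406 and 2138 in normoxia, a 3.49-fold rise, and HXT6, a high-affinity one nearly identical to HXT7, fell 2.21-fold. Of 35 general stress genes 7 rose and 10 fell, with 3 rises without hem1 replicate 1 and 5 falls after scaling to the spiked-in controls. HSP42, a small heat shock protein, had 201 and 203 in hem1 with ALA and 1305 and 1556 in normoxia, a 7.05-fold fall, while HSP26, of the same family, had 1309 and 1265 in hem1 with ALA and 341 and 362 in normoxia, a 3.66-fold rise. HSP82, a form of Hsp90, fell 3.16-fold. SOD2, the mitochondrial superoxide dismutase, had 419 and 325 in hem1 with ALA and 1361 and 1187 in normoxia and fell 3.44-fold, 1 of 10 of 27 genes of oxidative stress defence that fell beside 3 that rose. The number of falls in that list was 2 after scaling to the spiked-in controls or without hem1 replicate 2. BNA1, which acts in NAD synthesis from tryptophan by an oxygen-dependent step, had 452 and 483 in hem1 with ALA and 1966 and 1812 in normoxia and fell 4.04-fold, and BNA4 fell 2.17-fold. PHO89, a phosphate transporter, rose 5.42-fold, at 715 and 1248 in hem1 with ALA and 185 and 164 in normoxia. Of 46 ribosome biogenesis genes 12 rose and none fell, a count of 5 without hem1 replicate 1 and of 28 after scaling to the spiked-in controls. Of 81 cytosolic ribosomal protein genes 7 rose (8.64%) and 1 fell, and the split depended on the scaling, with 6 higher and 9 lower after median centring and 15 higher and 0 lower after scaling to the spiked-in controls. RPL7B, with a close copy that may share signal, was among the rises at 5047 and 4335 in hem1 with ALA and 1055 and 974 in normoxia. Of 24 genes of glycolysis and fermentation 1 was called, PDC6, which was dim in both groups.

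**Figure D5:**
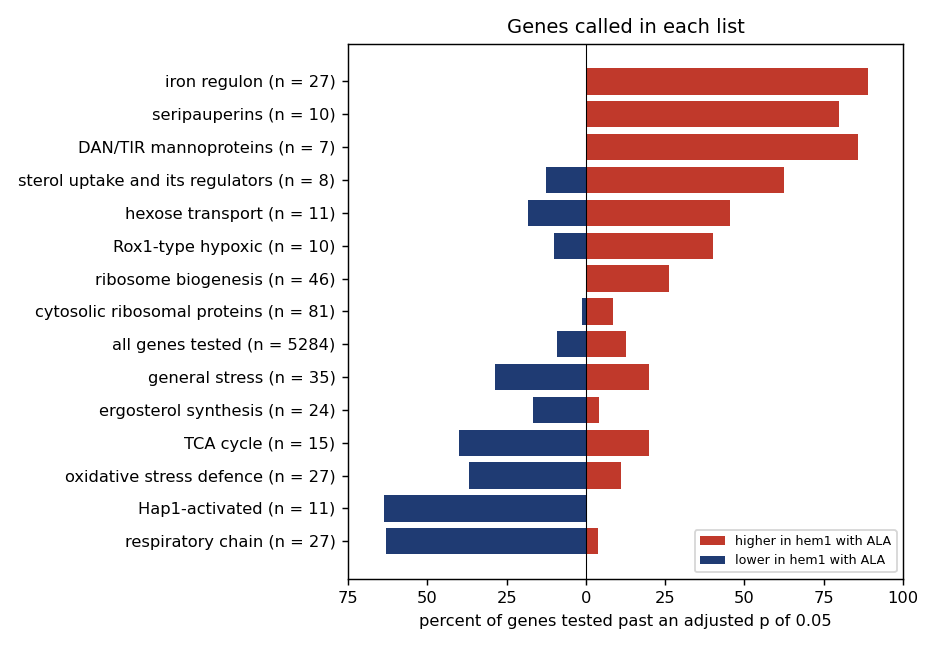
Percent of tested genes past an adjusted p of 0.05 in 14 lists and over all genes, with genes higher in hem1 with ALA drawn to the right of 0 and genes lower to the left. The iron regulon reaches 24 of 27 genes to the right and the respiratory chain 17 of 27 to the left, against 12.6% and 9.12% over all genes.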

How the data were processed

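RNA of 8 yeast samples was hybridised to 1 array each. The submitters' processing notes name MAS5, with no version; the deposited intensities, 1 per probe set, are linear, and nothing at probe level was used here. Of 9335 probe sets 60 were controls. The platform annotation gave 1 gene for 6504 of the other 9275, several for 328 and none for 2443, and all 6504 were matched to the RefSeq R64 table, used for names only.

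Probe sets above the 30th percentile of their array on at least 2 of 8 arrays were tested, 7081 in all. A probe set could thus pass through 1 group alone. Log2 intensities were fitted with limma 3.58.1 (R 4.3.3), with 1 mean per group over all 8 arrays and an intensity trend in eBayes, two-sided, adjusted by Benjamini-Hochberg over all probe sets tested. The model had 4 residual and 4.36 prior degrees of freedom, and was tested on simulated data. A gene is represented by its probe set with the highest mean. Where the lower group had a dim array, the fold is given as a bound against the 30th percentile.

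Named genes were the 12 largest rises and falls, up to 4 genes per list and direction by adjusted p, and a list of known genes. The comparison and the lists were chosen with earlier results of these data known, and the lists of iron-sulfur proteins, mitochondrial genes, respiratory complexes and both routes of iron uptake, and further members named to cover their roles, after values were seen. Other scalings, filters and left-out arrays were tried. The number of arrays limits the precision.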

Additional observations from a re-analysis of the deposited data

How the results depend on the processing

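No paired analysis was possible because the labels give no replicate numbers that link the arrays of the 2 groups. The number of probe sets called higher in hem1 with ALA, 979 on the deposited scale, was 580 after quantile normalization, 603 after median centring, 2023 after scaling to the spiked-in controls and 646 with only the 4 arrays compared. The number called lower, 561, was 1079 after median centring and 180 after scaling to the spiked-in controls. With 1 array left out at a time the total of 1540 was between 695 and 1157, the number higher between 430 and 810 and the number lower between 265 and 347. Genes on the lists called higher, 122, numbered 193 after scaling to the spiked-in controls and between 74 and 111 with 1 array left out, and those called lower, 71, numbered 108 after median centring, 34 after scaling to the spiked-in controls and between 42 and 53 with 1 array left out. The scalings differ by construction in where they set the centre: the median log2 difference over probe sets tested was 0.11 as deposited, -0.03 after quantile normalization, -0.12 after median centring and 0.49 after scaling to the spiked-in controls. No named gene changed its direction past the threshold under any of the 12 alternatives. Other filters, a floor at the 30th percentile and a model without the intensity trend kept each of these counts within 1.5 times. Leaving out 1 of 2 arrays leaves a lone sample that is assumed to vary like the other groups. Genes near or below the 30th percentile have bounds in place of folds.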
